A study of Saccharomyces cerevisiae with 4 samples.

Results

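The 8 core histone genes of *S. cerevisiae* lie in 4 divergent pairs, and their BrdU signal was taken from the genome-wide profile of cells held in hydroxyurea (HU). The genes were found by symbol in the R64 gene table, where they are 8 of 6002 nuclear protein-coding genes. The 4 windows reach 10 kb beyond each pair and hold 1690 of the 243150 bins, each 50 bp long. The windows of *HTA2-HTB2* and *HHT1-HHF1*, both on chromosome II, share 31 bins. The origins beside the pairs came from the study's list of 392 origins, which gives each one a class by its response to loss of Rif1. Neither the genes nor the windows were chosen by their signal.

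BrdU-IP-Seq was carried out on 4 libraries, 2 from *WT* and 2 from *rif1Δ* cells. All cells were W303-derived haploids of mating type **a**, with the BrdU-Inc cassette at *LEU2*, *bar1Δ::hisG* and the alleles *can1-100*, *trp1-1*, *his3-11,15*, *ura3-1* and *ade2-1*. The *rif1Δ* strain differed by replacement of *RIF1* with KanMx. Cells were arrested in G1 for 4 h at 23 °C with α-factor at 7.5 nM, then released with pronase (200 µg/mL) into HU (0.2 M in the study's methods, 0.2 without a unit in the sample labels) and BrdU (400 µg/mL) and harvested 45 min later. BrdU replaces thymidine in newly made DNA, so its signal marks the stretches that forks copied before HU, which depletes deoxyribonucleotides, stalled them.

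The deposited signal is smoothed read coverage, already averaged over the 2 libraries of each strain. Every value is therefore the authors' mean, the difference between strains has no replicate check, and none was tested. The reads behind a bin are unknown. Over the deleted gene itself, *RIF1* (YBR275C), the mean was 3.08 for *WT* against 0.436 for *rif1Δ*, and over all nuclear bins it was 12.6 against 12.1. A lower signal can come from fewer cells that copied a stretch or from less BrdU in each, and these cannot be told apart here. A gene or origin was called above background where its mean exceeded the 99th percentile of 5554 windows of 1 kb lying at least 10 kb from any listed origin, a value of 13.5 for each strain. Ratios between strains are log2((*rif1Δ* + 1)/(*WT* + 1)), a scale that understates differences at low signal.

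Histones H2A, H2B, H3 and H4 form the protein core of the nucleosome, and a full set must be made for the new DNA in each S-phase. In budding yeast each histone is encoded by a pair of genes, and each gene shares a divergent promoter with the gene of its partner histone, H2A with H2B and H3 with H4. Transcription of these genes is confined to late G1 and S-phase, where Spt10 and Spt21 activate it, and the HIR complex represses most of the pairs outside S-phase and in HU. A gene close to an early origin can be copied before forks stall in HU, and a gene far from one is copied later.

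At 3 of the 4 pairs the histone genes lay on the shoulder of a high BrdU peak in both strains, and the fourth pair, *HHT2-HHF2*, was at background in both. Thus 6 of the 8 genes were above background in *WT* and 6 in *rif1Δ* cells, against 12.1% and 12.5% of all nuclear protein-coding genes. All 8 genes had a lower signal in *rif1Δ* than in *WT* cells, as did 51% of all genes, and the median log2 ratio was -0.55 over the 8 and -0.01 over all genes. With both strains scaled to the same summed nuclear signal, 6 of the 8 were lower (47.3% of all genes), since *HTB1* and *HHF1* turned to log2 ratios of 0.04 and 0.00. One gene, *HTA2*, had a log2 ratio below -1 (7.28% of all genes), and none had one above 1 (5.83% of all genes).

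**Figure D1:**
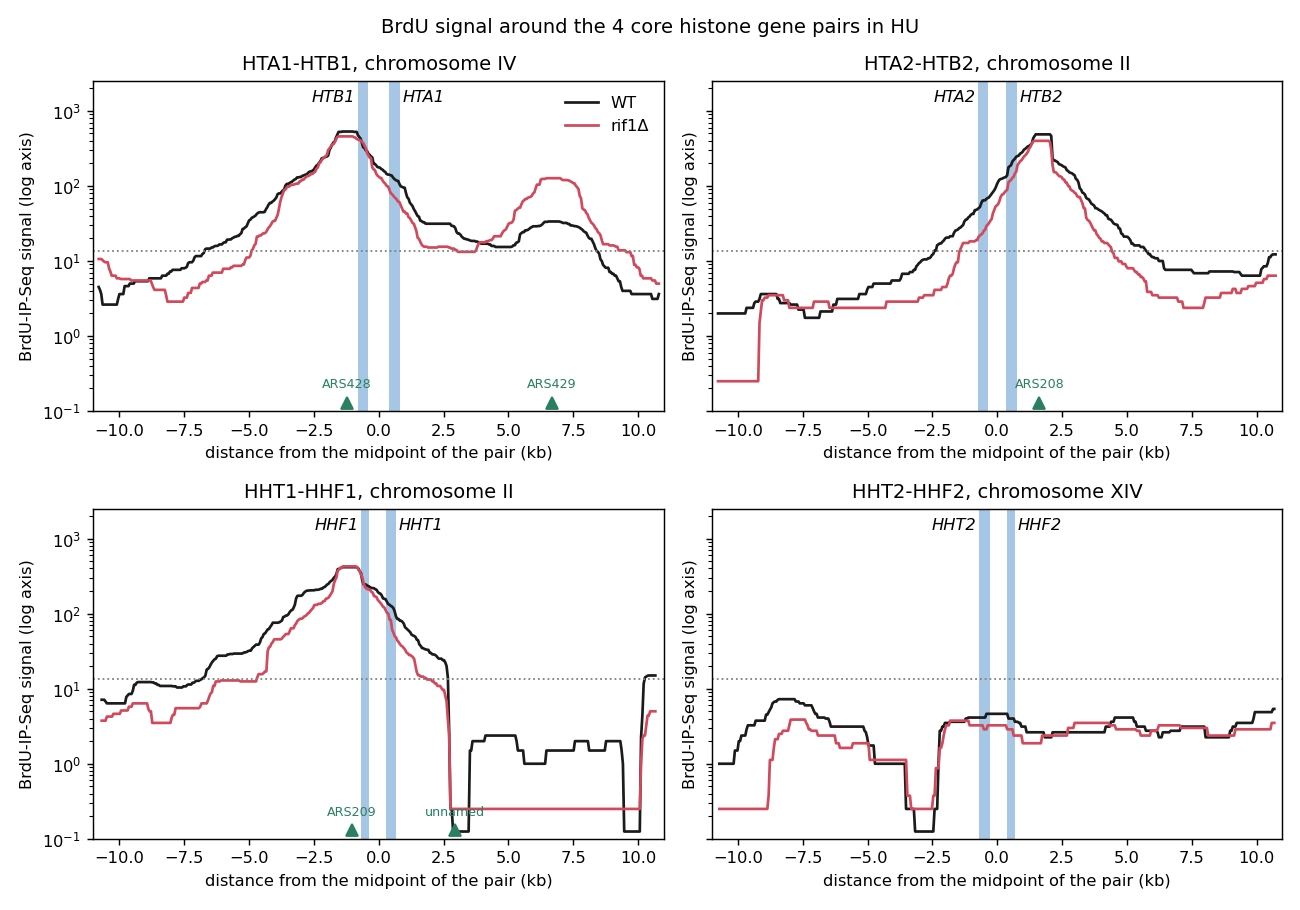
BrdU-IP-Seq signal (log axis) against distance in kb from the midpoint of each pair, in WT (black) and rif1Δ (red) cells, with coding regions as blue bands, listed origins as green triangles and the WT background threshold as a dotted line. Peaks of 416 to 531 in WT stand beside 3 pairs, and the HHT2-HHF2 window stays at or below 7.25 in WT and 3.88 in rif1Δ cells.

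The pair *HTA1-HTB1* encodes H2A and H2B and occupies 914317 to 915928 of chromosome IV. Its genes are separated by 817 bp, and ARS428 (913780 to 914029, between *CRF1* and *HTB1*) ends 288 bp from the 3′ end of *HTB1*. *HTB1* (YDR224C, 914317 to 914712), which encodes H2B, had a mean signal of 359 for *WT* against 354 for *rif1Δ*, a log2 ratio of -0.02. Its level ranked 7 in *WT* and 5 in *rif1Δ* cells among the 6002 genes. *HTA1* (YDR225W, 915530 to 915928), which encodes H2A and lies on the far side of the shared promoter, had 126 in *WT* and 72.7 in *rif1Δ* cells, a log2 ratio of -0.78. Over its bins the signal ran from 106 to 142 in *WT* and from 60.8 to 91.8 in *rif1Δ* cells. Over those of *HTB1* it ran from 268 to 472 and from 257 to 415. These ranges follow the slope of the peak along the gene and do not measure the difference between strains. The intergenic promoter had 188 in *WT* and 149 in *rif1Δ* cells.

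The pair *HTA2-HTB2*, the second source of H2A and H2B, occupies 235394 to 236887 of chromosome II, with 699 bp between its genes. ARS208 (237644 to 237879, between *ECM15* and *NTH2*) begins 757 bp beyond the 3′ end of *HTB2*, with *ECM15* in between. *HTB2* (YBL002W, 236492 to 236887) had a mean signal of 192 for *WT* against 121 for *rif1Δ*, a log2 ratio of -0.67. *HTA2* (YBL003C, 235394 to 235792), again the gene farther from the origin, had 59.9 in *WT* and 24.4 in *rif1Δ* cells, a log2 ratio of -1.26. *HTA2* was the lowest of the 6 genes above background in each strain and had the most negative ratio of the 8. Its bins ran from 48.9 to 69.0 in *WT* and from 19 to 30.4 in *rif1Δ* cells. The promoter had 102 and 56.4.

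The pair *HHT1-HHF1* encodes H3 and H4 and occupies 255373 to 256741 of chromosome II, with 646 bp between its genes. ARS209 (254890 to 255136, between *FLR1* and *HHF1*) ends 237 bp from the 3′ end of *HHF1*. *HHF1* (YBR009C, 255373 to 255684), an H4 gene, had a mean signal of 260.2 for *WT* against 251 for *rif1Δ*, a log2 ratio of -0.05. Its bins ran from 232 to 346.5 in *WT* and from 209.8 to 329.5 in *rif1Δ* cells. *HHT1* (YBR010W, 256331 to 256741), an H3 gene, had 126 in *WT* and 77.2 in *rif1Δ* cells, a log2 ratio of -0.70. Its bins ran from 91.4 to 155 in *WT* and from 48.2 to 111 in *rif1Δ* cells. The promoter had 196 and 159.

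The pair *HHT2-HHF2*, the second source of H3 and H4, occupies 575640 to 577038 of chromosome XIV, with 676 bp between its genes. No listed origin lies within 10 kb of it. *HHT2* (YNL031C, 575640 to 576050) had a mean signal of 4.29 for *WT* against 3.12 for *rif1Δ*, and *HHF2* (YNL030W, 576727 to 577038) had 4.04 and 2.73. These values are far below the threshold and near the median of the background windows, 3.10 for *WT* and 3.17 for *rif1Δ*. Their log2 ratios of -0.36 and -0.43 compare 2 background levels. No bin of the 10 kb flanks exceeded the threshold in either strain.

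The order of the levels was nearly the same in both strains. In *WT* cells it ran *HTB1*, *HHF1*, *HTB2*, *HTA1*, *HHT1*, *HTA2*, *HHT2*, *HHF2*, and in *rif1Δ* cells *HTA1* and *HHT1* changed places. The ranges of bins of neighbors in this order overlapped, except that *HTA2* stood clear of the genes on either side in both strains and *HTB2* stood clear of *HHF1* in *rif1Δ* cells. Bins within a gene share smoothed reads, their range follows the slope of the peak, and they are no measure of the error between libraries.

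**Figure D2:**
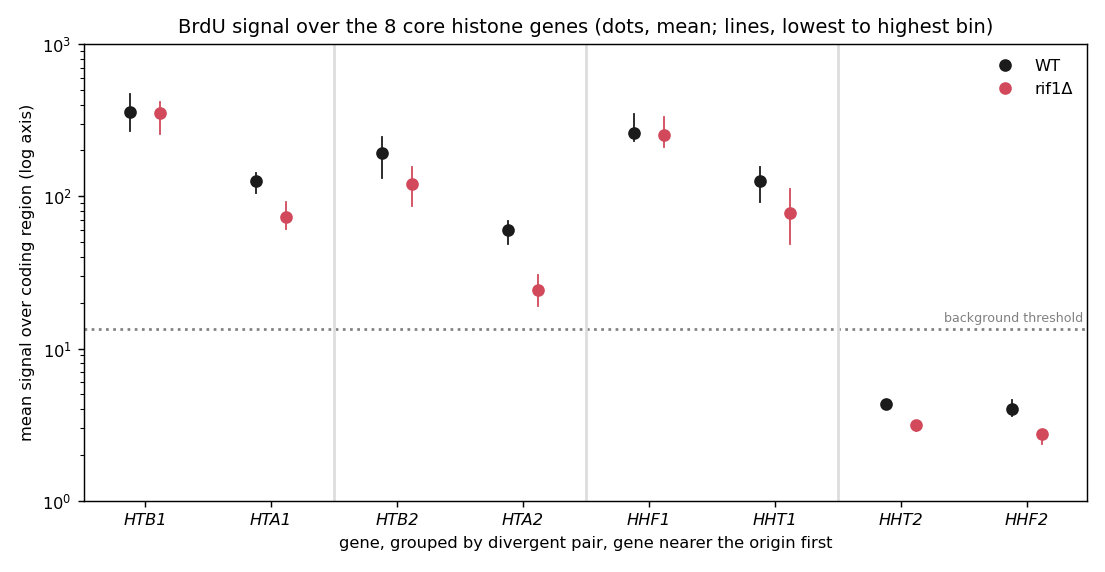
Mean BrdU-IP-Seq signal over the coding region (log axis) of each histone gene in WT (black) and rif1Δ (red) cells, with lines from the lowest to the highest bin and the WT background threshold dotted. In the first 3 pairs the gene nearer the origin is higher and nearly level between strains at HTB1 and HHF1, and HTA2 shows the widest gap (59.9 and 24.4).

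In each of the 3 pairs above background, the gene nearer the origin faced it with its 3′ end and the farther gene with its 5′ end. A fork that leaves the origin toward the pair thus meets the nearer gene against its direction of transcription and the farther gene along it. The nearer gene is an H2B gene at both H2A-H2B pairs and the H4 gene at *HHT1-HHF1*. The signal dropped steeply across the promoter, over distances between gene midpoints of 1214.5 bp at *HTA1-HTB1*, 1096.5 bp at *HTA2-HTB2* and 1007.5 bp at *HHT1-HHF1*. *HTB1* was 2.85 times as high as *HTA1* in *WT* and 4.87 times as high in *rif1Δ* cells. *HTB2* was 3.20 and 4.95 times as high as *HTA2*, and *HHF1* was 2.07 and 3.25 times as high as *HHT1*. These ratios lie within 1 profile each, so a scale factor between strains does not enter them, and all 3 were larger in *rif1Δ* cells. At *HHT2-HHF2* the genes differed by 1.06 times in *WT* and 1.14 times in *rif1Δ* cells.

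Each of these genes has a close copy in another pair, and reads from sequence common to both copies could have been placed at either. How such reads were handled is not given in the sources used here, and their part was not tested.

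The origins beside the 3 pairs above background were among the highest of the list. As the mean within 500 bp of its midpoint, ARS428 had 508 in *WT* against 443 in *rif1Δ* cells and ranked 4 and 13 of 392. ARS208 had 446 and 372 and ranked 14 and 25. ARS209 had 391.5 and 398 and ranked 26 and 19. Their log2 ratios were -0.20, -0.26 and 0.02, and the list calls all of them Rif1-unregulated, a class whose median log2 ratio was 0.10 over 137 origins (quartiles -0.10 and 0.40). The class came from these same libraries and is not independent of the signal.

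The listed origins nearest to *HHT2-HHF2* were well above background but lie farther away than those beside the other pairs. ARS1422 (561106 to 561384, between *NCE103* and YNL035C) lies 14256 bp to the left and had 482 in *WT* and 477 in *rif1Δ* cells, rank 10 and 5, within the range of ARS428, ARS208 and ARS209 for *WT* and above it for *rif1Δ*. ARS1424 (609458 to 609706, overlapping *SPO1*) lies 32420 bp to the right and had 318 and 307, rank 45 and 41, below all 3 of them. The stretch above background around ARS1422 ended 13.2 kb short of *HHT2* in *WT* and 13.4 kb short in *rif1Δ* cells. That around ARS1424 ended 28.2 kb and 29.9 kb short of *HHF2*. In neither strain did the BrdU tract of a neighboring listed origin reach the pair.

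Of the other listed origins by the rule, ARS429 differed most between strains. It lies 5754 bp to the right of *HTA1* (921682 to 921930 of chromosome IV, overlapping *PCF11*) and had a mean signal of 32.7 for *WT* against 124 for *rif1Δ*. Its log2 ratio of 1.89 was the highest of the 137 origins called Rif1-unregulated, of which 8 exceeded 1 and the next highest was 1.42. Around it, *PCF11*, which encodes a subunit of an mRNA cleavage factor, had 24.6 in *WT* and 74.9 in *rif1Δ* cells, and *SIR4*, which encodes a silencing protein, had 22.2 and 39.0. The *HTA1-HTB1* window thus holds ARS428 on one side of the pair, with 508 in *WT* and 443 in *rif1Δ* cells. On the other side it holds an origin that is higher in *rif1Δ* cells. ARS207.8 (209187 to 210063 of chromosome II, overlapping *HIR1* and *ALK2*), the nearest listed origin to the left of *HTA2* at 25331 bp, had 63.1 and 68.2.

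An unnamed listed origin (258430 to 259601 of chromosome II, between *IPP1* and YBR012W-B) lies 1689 bp to the right of *HHT1*, and its mean of 5.45 in *WT* against 2.19 in *rif1Δ* cells was below the threshold. No separate peak was seen there. From 258801 the bins were at 0.25 or below, for 750 bp in *WT* and for 7350 bp in *rif1Δ* cells, where the run covered the Ty1 genes YBR012W-B and YBR012W-A. The lowest value of the nuclear profile was 0.125 for *WT* and 0.25 for *rif1Δ*. The list calls all 8 origins beside the pairs Rif1-unregulated. In total 7 of the 8 were above background in *WT* and 7 in *rif1Δ* cells, against 64% and 90.8% of the list. ARS429 was the only one with a log2 ratio above 1 (41.8% of the list), and the unnamed origin, at -1.01, the only one below -1 (8.93%). The signal was lower in *rif1Δ* cells at 5 of the 8, against 34.4% of the list. With equal summed nuclear signal it was lower at 3 of the 8, against 32.4%, since ARS1422 and ARS1424 turned to log2 ratios of 0.04 and 0.01. The whole list is not a like set for these 8, since it also holds 174 origins called Rif1-repressed, with a median log2 ratio of 2.38. Of the 137 origins called Rif1-unregulated, 128 were above background in *WT* cells and 8 had a log2 ratio above 1.

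**Figure D3:**
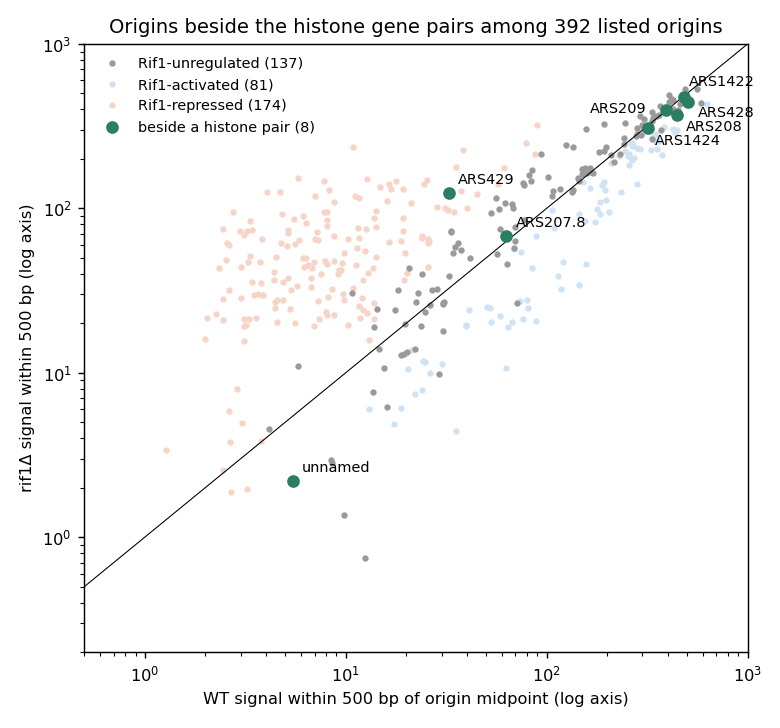
Signal within 500 bp of the midpoint in rif1Δ against WT cells (log axes) for the 392 listed origins by class, with the 8 origins beside a histone pair in green and the line of equal signal. ARS428, ARS208, ARS209, ARS1422 and ARS1424 lie near the line between 307 and 508, ARS429 lies above it (32.7 and 124), and the unnamed origin lies at 5.45 and 2.19.

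The unbroken stretch of bins above background that held the pair was shorter in *rif1Δ* than in *WT* cells at all 3 pairs. At *HTA2-HTB2* it ran from 233701 to 241900 in *WT* (8200 bp) and from 234701 to 240550 in *rif1Δ* cells (5850 bp). At *HHT1-HHF1* it ran from 249251 to 258750 in *WT* (9500 bp) and from 251351 to 257900 in *rif1Δ* cells (6550 bp). The right end in *WT* cells lies at the edge of the run of lowest values described above, and the part of that run in the length was not tested. At *HTA1-HTB1* it ran from 908401 to 923550 in *WT* (15150 bp), which includes ARS429, and from 910201 to 918150 in *rif1Δ* cells (7950 bp). The lowest bin between ARS428 and ARS429 was 15.4 in *WT* and 13.2 in *rif1Δ* cells, so a small change of the threshold joins or parts these tracts. With the width taken around the highest bin, at 50% of its level, the order turned at *HTA1-HTB1*. That width was 1550 bp in *WT* and 1900 bp in *rif1Δ* cells, belongs to the ARS428 peak and does not reach *HTA1*. All 6 genes lay wholly inside the stretch above background of each strain.

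On the side of the histone genes, the difference between strains was larger at 2 to 4 kb than at the origin. At ARS208 the log2 ratio there was -0.26 at the origin, -0.50 at 1 kb, -1.08 at 2 kb, -1.14 at 3 kb and -1.65 at 4 kb, and then shrank to -1.08 at 5 kb and -0.76 at 6 kb. At ARS209 it was 0.02, -0.29, -0.98, -1.23 and -1.01 from the origin to 4 kb. The 4 kb step lies over the unnamed origin, with the same means of 5.45 in *WT* and 2.19 in *rif1Δ* cells. It is thus not a second difference, and it takes in the run of lowest bins from 258801 in both strains. At 5 and 6 kb the *rif1Δ* signal was at its lowest value. At ARS428 the log2 ratio was -0.20, -0.15, -0.77, -0.90 and -0.90 from the origin to 4 kb. On the side away from the genes, the values at 2 kb were -0.80 at ARS208, -0.97 at ARS209 and -0.16 at ARS428. Beyond 5 kb on its gene side ARS428 meets the signal of ARS429, and the ratio turned to 0.71 at 6 kb. The same distances were taken at 46 other Rif1-unregulated origins with a *WT* signal of at least 100, intervals of at most 1000 bp and no listed origin within 10 kb, over the mean of their sides. Their median log2 ratio was 0.04 at the origin, -0.21 at 1 kb, -0.49 at 2 kb (quartiles -0.66 and -0.31) and -1.02 at 4 kb, where all 46 were below 0, and -0.90 and -0.61 at 5 and 6 kb. With sides averaged in the same way, ARS208 had -0.94 and ARS209 -0.98 at 2 kb, and 1 of the 46 was lower than either. ARS428 had -0.47, with 26 of the 46 lower. At the origin, 1 of the 46 was lower than ARS208, 20 than ARS209 and 2 than ARS428. At 4 kb the numbers were 1, 14 and 16. Unlike the 46, ARS209 and ARS428 have another listed origin within 10 kb, at 4.0 and 7.9 kb. The scaling between strains is not given in the sources used here. Giving both strains the same summed nuclear signal applies 1 factor to each strain. The nuclear means of 12.6 in *WT* and 12.1 in *rif1Δ* cells were close, so this could not move any log2 ratio by 0.25. It does not test the scaling that the authors used. It turned the *HTA1-HTB1* window from -0.02 to 0.04.

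**Figure D4:**
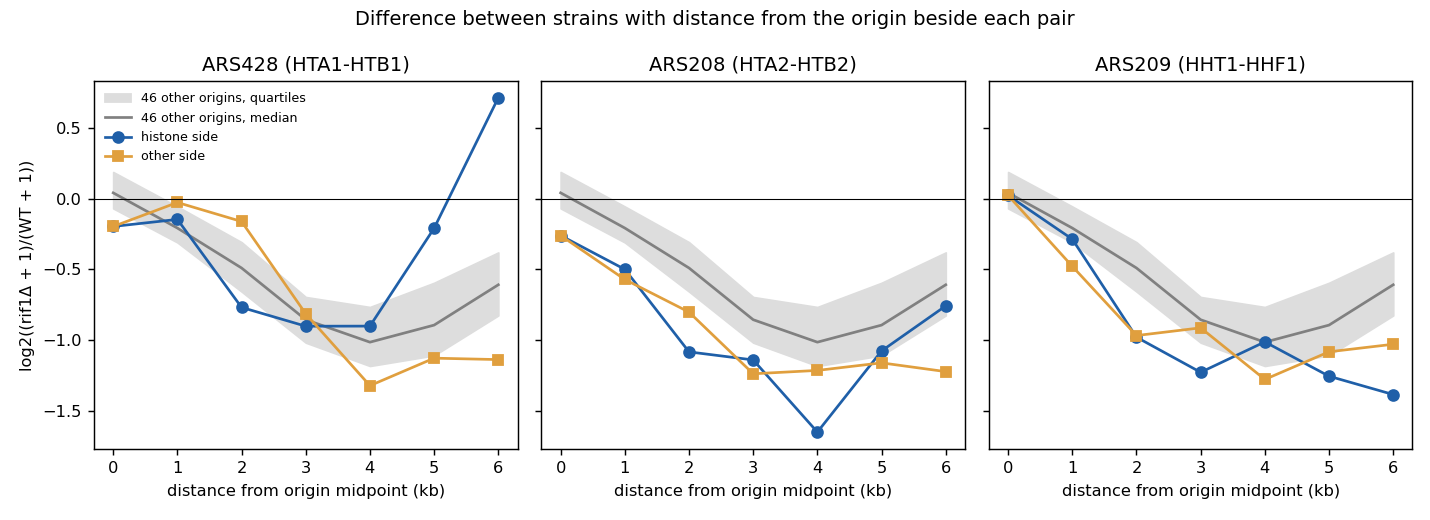
The log2 ratio of rif1Δ to WT signal against distance in kb from the midpoint of ARS428, ARS208 and ARS209, in steps of 1 kb, on the side of the histone genes (blue) and the other side (orange), with the median (line) and quartiles (shaded) of 46 other origins. At 2 kb the values on the gene side are -0.77, -1.08 and -0.98. The median and quartiles of the 46 are over the mean of both sides, with a median of -0.49 at 2 kb. Averaged alike, ARS428, ARS208 and ARS209 have -0.47, -0.94 and -0.98.

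Among genes at a like distance from a listed origin, the 6 genes were in the upper part of the range in both strains. Of 337 genes whose midpoint lies within 1 kb of an origin midpoint, *HTB1* ranked 7 in *WT* and 5 in *rif1Δ* cells and *HHF1* ranked 28 and 19. The median of these genes was 21.9 and 41.0. Of 402 genes at 1 to 2 kb, *HTB2* ranked 14 and 27, *HTA1* 46 and 77, and *HHT1* 47 and 71, with medians of 13.9 and 22.0. Of 331 genes at 2 to 3 kb, *HTA2* ranked 32 and 58, with medians of 8.03 and 8.39. *HHT2* and *HHF2*, at 14600 and 15637.5 bp, ranked 322 and 383 in *WT* and 970 and 1271 in *rif1Δ* cells among 1771 genes at 10 to 20 kb.

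**Figure D5:**
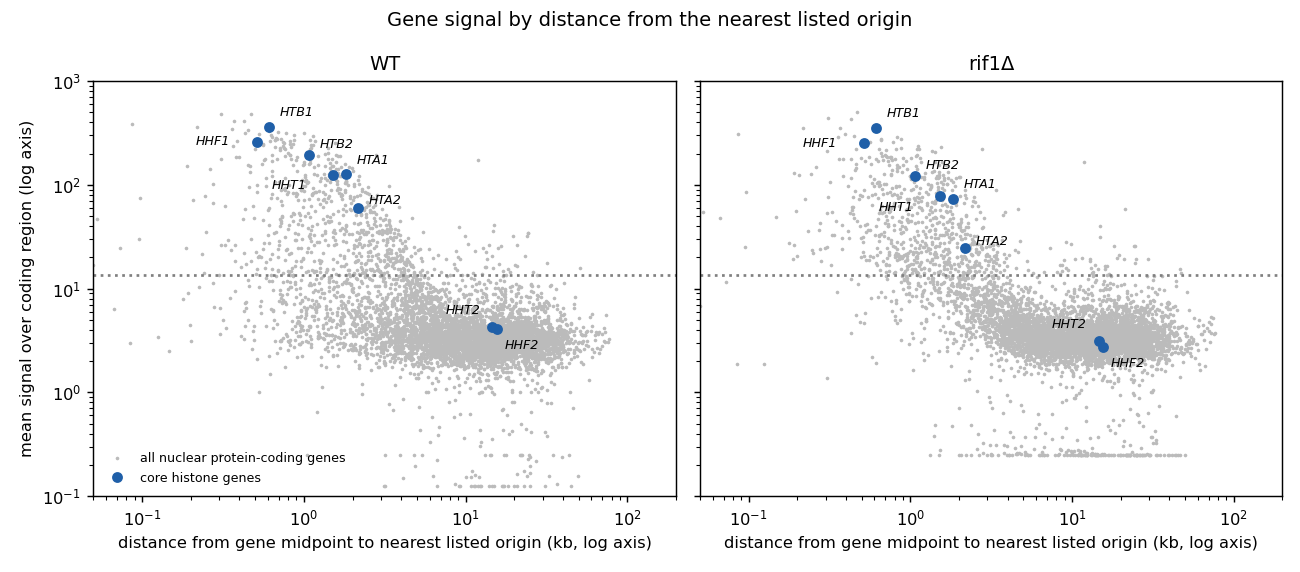
Mean signal over the coding region (log axis) against distance in kb from the gene midpoint to the nearest listed origin midpoint (log axis), for 6002 nuclear protein-coding genes (gray) and the 8 core histone genes (blue), in WT and rif1Δ cells, with the WT background threshold dotted. The 6 genes within 2.2 kb of an origin lie between 59.9 and 359 in WT, and HHT2 and HHF2 lie in the background cloud.

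Of 36 genes with related roles, 4 were above background in *WT* and 3 in *rif1Δ* cells, shares near the 12.1% and 12.5% of all genes. The other histone genes *HTZ1* (H2A.Z), *CSE4* (the centromeric H3) and *HHO1* (H1) were all below background in both strains, at 3.33 to 4.56 in *WT* and 3.31 to 6.94 in *rif1Δ* cells. Of 12 regulators of histone gene transcription, only *HIR1*, a subunit of the HIR complex, was above background, with 32.5 in *WT* and 24.8 in *rif1Δ* cells. Of 9 histone chaperones and modifiers, only *POB3*, a subunit of the FACT complex, was above it, with 162 and 124. Of 12 replication genes with expression at G1/S, *RFA1*, the large subunit of the single-strand binding protein RPA, was above it in both strains, with 58.8 and 26.3 (log2 ratio -1.13), and *CDC21*, thymidylate synthase, in *WT* only, with 16.6 and 10.4. Over the 36 genes together, 24 (66.7%) were lower in *rif1Δ* cells, against 51% of all genes. With equal summed nuclear signal, 22 (61.1%) were lower, against 47.3%. The median log2 ratio was -0.16, against -0.01 over all genes. No gene of these lists had a log2 ratio above 1 (5.83% of all genes), and *RFA1* was the only one below -1 (7.28% of all genes).

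The genes outside the windows whose signal was most like that of each pair, by Euclidean distance in log2(signal + 1) over the 2 averaged columns, also lay near origins in the case of the 3 pairs above background. They were *MIC19*, a subunit of the mitochondrial MICOS complex (247 in *WT* and 222 in *rif1Δ* cells) and *GLC8*, a regulator of protein phosphatase 1 (233 and 203) for *HTA1-HTB1*, whose coding regions together had 242 and 213. They were *ULA1*, of the Rub1-activating enzyme (121 and 75.4) and *NOC3*, which acts in ribosome assembly (127 and 66.5) for *HTA2-HTB2* (126 and 72.5), and *BUL1*, an adaptor of the ubiquitin ligase Rsp5 (189 and 155) and *RRP15*, which acts in rRNA processing (177 and 159) for *HHT1-HHF1* (185 and 153). These 6 genes had midpoints 574 to 1662 bp from an origin midpoint. For *HHT2-HHF2* (4.18 and 2.95) they were *HSF1*, the heat shock factor, and *OXA1*, a mitochondrial membrane insertase, at 17197.5 and 23256 bp. All these genes were chosen by their signal. Of genes at 5 to 10 kb from an origin, 1.89% were above background in *WT* and 1.13% in *rif1Δ* cells. For the 3 pairs above background, a place near an origin thus goes with the choice by signal.

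Taken over the whole windows, the mean around *HTA1-HTB1* was 70.7 in *WT* against 69.6 in *rif1Δ* cells (log2 ratio -0.02), a window that holds both the lower flanks of ARS428 and the higher peak of ARS429. It was 52.0 and 36.1 around *HTA2-HTB2* (-0.52), 60.9 and 44.8 around *HHT1-HHF1* (-0.43) and 3.16 and 2.31 around *HHT2-HHF2* (-0.33). Bins above background made up 70.0% of the *HTA1-HTB1* window for *WT* against 63.5% for *rif1Δ*. They made up 38.1% and 27.1% of the *HTA2-HTB2* window, 46.5% and 30.6% of the *HHT1-HHF1* window and 0% of the *HHT2-HHF2* window, while 12% of nuclear bins were above background in each strain. The share of bins with a lower signal in *rif1Δ* cells was 56.6% around *HTA1-HTB1*, 91.4% around *HTA2-HTB2*, 89.7% around *HHT1-HHF1* and 66.7% around *HHT2-HHF2*, against 50.2% of all nuclear bins.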

How the data were processed

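BrdU-IP-Seq was analysed for 2 *WT* and 2 *rif1Δ* libraries. The authors separated libraries by barcode (FASTX toolkit), placed trimmed paired reads on R64 with Bowtie2 and counted them per 50 bp bin. A running median of 1 kb, quantile normalization of the libraries of a strain, their mean and another smoothing step gave the deposited signal. It is a read coverage, with a single averaged column for each strain, so no depth, replicate error or test could be had. Smoothing lowers narrow peaks and spreads signal into neighboring genes.

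Gene positions came from the R64 RefSeq gene table (all 8 symbols and all 36 comparison genes matched), strand from the systematic names, and origins and their classes from the study's supplementary list. Gene signal was the mean over bins overlapping the coding region, and origin signal the mean over bins centered within 500 bp of the midpoint. The genes named were the 8 members, *RIF1*, genes of the comparison lists by level or ratio, the nearest in likeness, and window genes beside a peak. The 46 comparison origins were chosen after the members' values were seen, and genes and lists with earlier results of these data known. *SIR4*, *HTZ1*, *CSE4* and *HHO1* were named outside that rule, after their values were seen. The measures were tested on a simulated profile without smoothing, where 188 of 200 gene ratios lay within 0.25 of the true log2 value. Python 3.11.15, numpy 2.4.6 and pandas 2.3.3 were used.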

Additional observations from a re-analysis of the deposited data

How the results depend on the processing

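The alternatives changed the pseudocount, scaling, window, threshold or tract rule, 1 at a time. With no replicates, a log2 ratio was taken to have moved beyond 0.25, a count beyond 1.5 times and a width beyond 1000 bp. Equal summed nuclear signal applies 1 factor to each strain and could not move a log2 ratio that far. It also scales the threshold with the signal, so the 6 tract widths taken with it could not change. Of 136 values, 115 did not move by these limits, among them all counts above background and all ratios over whole windows. Some of these counts still changed. With a stricter percentile as the threshold, 5 core histone genes in place of 6 were above background in *rif1Δ* cells. The gene lost was *HTA2*, the lowest of the 6. Origins above background in *WT* cells were then 6 in place of 7, and they were 8 with the mean within 2500 bp. Counts of genes and origins lower in *rif1Δ* cells under equal summed nuclear signal were added after seeing the data, and gave 6 of 8 genes and 3 of 8 origins in place of 8 and 5. Over *HHT2-HHF2*, at background, the log2 ratio became -0.13 when the pseudocount was 10 and -1.02 after subtraction of the background median. At the unnamed origin it was -1.27 with a pseudocount of 0.1, -0.34 with 10 and -1.37 with background subtracted. These settings act by construction on low signal. Within 2500 bp, ARS429 had 1.49, ARS209 turned from 0.02 to -0.33 and ARS207.8 from 0.11 to -0.23, as the wider window takes in their flanks. Tract widths rest on the rule, and the one at 50% is taken around the origin peak, short of the farther gene. At 50% of the highest bin they were 1550 bp in *WT* and 1900 bp in *rif1Δ* cells at *HTA1-HTB1*, so that *rif1Δ* was then the wider, 1400 and 1300 bp at *HTA2-HTB2*, and 2350 and 1300 bp at *HHT1-HHF1*. At the 95th percentile of background they were 17250 and 16500 bp, 13100 and 7100 bp, and 12450 and 9200 bp. No origin beside a pair has an interval of 5 kb or more, so leaving those out changed nothing. Leaving out bins with repeated 40-base words was not run. No paired analysis was possible because the file analysed here holds the average of the replicates of each strain, which also barred leave-one-out runs.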

Other observations

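Other genes of the windows also lay in the signal of the same origins. *ECM15*, between *HTB2* and ARS208, had 334 in *WT* and 296 in *rif1Δ* cells, above both genes of its pair. *CRF1*, a repressor of ribosomal protein genes on the far side of ARS428 from *HTB1*, had 229 and 220.1, and *FLR1*, a drug transporter gene on the far side of ARS209 from *HHF1*, had 191 and 111, each below the histone gene nearest to it. On the far side of the histone genes, *ADK1*, adenylate kinase, beyond *HTA1*, had 36.0 and 18.8, and *IPP1*, inorganic pyrophosphatase, beyond *HHT1*, had 45.1 and 19.99.

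Runs of bins at 0.25 or below also occurred to the left of *HHT2*, over YNL033W (573001 to 573850 in *rif1Δ* cells, 572801 to 574050 in *WT*), and over the part of YBL005W-B, a Ty1 gene, that lies inside the left edge of the *HTA2-HTB2* window, in *rif1Δ* cells. Over the whole of that gene, 25 of 106 bins were this low in *WT* and 104 in *rif1Δ* cells. The part of repeated sequence in these gaps was not tested. These genes were named after their values were seen.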
